A study of Arabidopsis thaliana with 6 samples.

Results

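High light was set against low light in ibm1-3 plants of Arabidopsis thaliana, using all 3 libraries that carry this genotype among the 6 libraries of the study. The libraries were taken by their labels: 2 came from rosette leaves of ibm1-3 plants aged 30 days after 48 hours of high light, and 1 from rosette leaves of ibm1-3 plants aged 40 days in low light. All plants were of the Columbia ecotype and were grown in a greenhouse in long days. The other 3 libraries hold wild type (WT) leaves of the same ages and treatments, 2 from high light and 1 from low light. The mutant is a single allele, ibm1-3, and the labels do not say whether the libraries came from separate plants. Each WT library shares a table with an ibm1-3 library, and the high light and low light tables were made separately. Light, age and table therefore cannot be told apart here, in either genotype, and all values below are descriptions with no test.

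IBM1 is a jumonji-type enzyme that takes methyl groups off histone H3 in transcribed genes, and plants without it gain silencing marks in gene bodies. Leaves in strong light absorb more energy than carbon fixation can use. They are known to respond by making smaller light-harvesting antennae, dissipating excitation as heat, detoxifying reactive oxygen, and accumulating anthocyanins, which are red flavonoids that screen light. Many genes of these pathways are also under the control of the circadian clock, of sugar signals and of stress hormones.

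High light library 1 held 12502408 estimated fragments, and the low light library held 13099267 reads. The depth of high light library 2 was not given. The 20 most abundant genes took 7.07% and 6.8% of all signal in the high light libraries, against 7.98% in the low light library. High light levels are FPKM (fragments per kilobase, scaled to library size). Low light levels are reads per kilobase scaled likewise, written RPKM here, with the gene length listed in the table of high light pair 1. The difference for a gene is the log2 of (level + 1) in a high light library minus the same in the low light library, after each library was centred on its median over the genes examined, so a value of 1 stands for 2-fold. It understates the change of genes with low levels. A gene was examined if all 3 tables gave it a value and its mean over both light conditions was at least 1, and it was called if both high light libraries differed from low light by at least 2-fold in 1 direction. The low light table listed no gene with fewer than 15 reads, and such genes stand there at 0.

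IBM1 itself (AT3G07610; chromosome 3, 2425884 to 2433113, forward strand, TAIR10.1, RefSeq annotation) had 17.6 and 7.46 FPKM in the high light libraries, against 9.20 RPKM from 399 reads in low light. The high light libraries lay on either side of the low light level, with centred log2 differences of 0.99 and -0.27, and the gene was not called. IBM1 transcript was thus present in all 3 libraries labelled ibm1-3, and its level does not check the label.

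Of 20575 genes with a value in all 3 tables, 16895 were examined. After high light, 1693 of them (10.0%) were at least 2-fold higher in both libraries and 1128 (6.68%) at least 2-fold lower in both, so that 16.7% were called in either direction. A threshold of 4-fold left 649 genes higher (3.84%) and 163 lower (0.965%). The median of the mean difference over all genes examined was -0.06. The 2 high light libraries disagreed with each other by an SD of 0.612 across genes on the log2 scale, and 8.11% of genes differed by at least 2-fold between them. They called 7 genes in opposite directions. In WT, 1804 of 16324 genes (11.1%) were higher and 1918 (11.7%) lower by the same rule.

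The difference moved with gene length. In the fifth of genes with the shortest listed length the median was -0.47 in high light library 1 and -0.39 in library 2, and in the fifth with the longest it was 0.30 and 0.13. Among the shortest genes 11.7% were called higher and 15.8% lower, against 8.88% and 1.24% among the longest. Subtracting the median of each of 20 length classes gave 1827 genes higher and 762 lower. It made 70.6% of the calls higher ones, against 1693 of 2821 before, and moved the median of all genes by 0.11. Its part in results on short genes, such as those for light-harvesting and ribosomal proteins, was not tested beyond this subtraction, and values after it stand beside those lists.

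**Figure D1:**
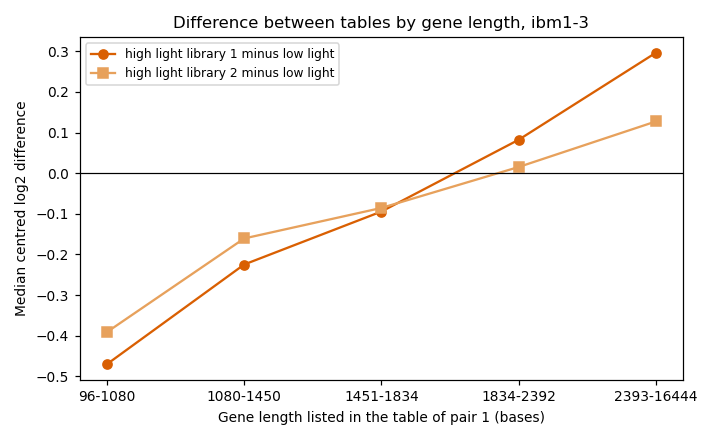
Median centred log2 difference (high light minus low light, vertical axis) in 5 classes of listed gene length in bases (horizontal axis), for high light library 1 (circles) and library 2 (squares) of ibm1-3. Both lines climb from the shortest class, at -0.47 and -0.39, to the longest, at 0.30 and 0.13.

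The labelled tissue was checked with markers. The mesophyll genes RBCS1A, a small subunit of Rubisco, and CA1, a carbonic anhydrase, had reads in all libraries. RBCS1A stood at 1777 and 4259.8 FPKM in high light and 1498 RPKM in low light. Of 5 floral identity genes with a row, AP3, PI and SEP1 were listed at 0 in low light and stood at no more than 1.02 FPKM in high light. The summed level of the 5 floral genes was 3.13 and 2.44 FPKM in high light and 5.997 RPKM in low light, most of it from SEP3, a MADS box factor, at 0.87 and 0.93 FPKM in high light and 5.001 RPKM in low light. Over all genes examined 10.0% were called higher and 6.68% lower, so the absence of calls among a few markers says little. None of 7 guard cell markers was called, and their sum over 8 genes was 61.9 and 77.9 FPKM in high light, against 54.5 RPKM in low light. Among vessel and phloem genes, XCP1 and XCP2, proteases of xylem vessels, were called higher and 5 others were not called. Of the 2 called higher, 1 had reads in low light and 1 was listed at 0 there. The sum of these 9 markers was 103.8 and 177 FPKM in high light and 204 RPKM in low light. Of 4 epidermis markers none was called, with sums of 6 markers at 220.2 and 418 FPKM in high light and 164 RPKM in low light. Of 3 genes on the root list, the phosphate transporter PHT1;4 and the nitrate transporter NRT2.1 were called higher. Again 1 of the 2 was listed at 0 in low light. The list summed to 34.8 and 54.5 FPKM in high light, against 12.4 RPKM in low light. In whole leaves, more cells of a type and more RNA per cell cannot be told apart.

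The genes furthest apart were ranked by the high light library nearer to low light, among 11772 genes with at least 50 low light reads and at least 5 FPKM in both high light libraries. Among the 12 highest were transporters, stress proteins and signalling genes. DIC2 (AT4G24570; chromosome 4, 12686459 to 12687650), a dicarboxylate carrier of mitochondria, had 815 and 809.9 FPKM in high light, against 8.52 RPKM in low light. Both high light libraries stood almost at the same level, 6.54 and 6.42 above low light on the centred log2 scale. From counts alone, the log2 ratio of high light library 1 to low light had an exact binomial 95% interval of 6.53 to 7.04, which covers counting error only. The 250 bases before the annotated start of DIC2 hold a copy of the rapid stress response element CGCGTT, a motif reported upstream of genes that answer wounding and calcium signals within minutes. DIC2 was the only gene of the 12 highest with this motif, and its sequence is shown for that reason (RefSeq, TAIR10.1, chr4:12686209-12686458, forward strand, motif in capitals).
DIC2: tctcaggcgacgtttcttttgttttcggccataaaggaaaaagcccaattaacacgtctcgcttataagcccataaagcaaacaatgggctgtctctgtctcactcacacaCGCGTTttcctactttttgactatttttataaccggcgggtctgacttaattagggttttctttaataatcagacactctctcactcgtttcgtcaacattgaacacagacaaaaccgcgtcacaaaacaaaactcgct
The motif, on either strand, was present before 2.90% of all genes examined, 6.29% of those called higher and 1.92% of those called lower. It was present before 0 of 12 early stress factors and 0 of 21 clock genes. A match is a description of the letters only.

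AMT1;1, a high-affinity ammonium transporter of the plasma membrane, stood at 268 and 452 FPKM in high light and at 2.55 RPKM in low light, from 58 reads. CYP707A3, a hydroxylase that inactivates the stress hormone abscisic acid, stood at 175 and 219 FPKM in high light and at 2.03 RPKM in low light. Both genes were more than 60-fold higher by the mean difference. Their counting intervals for library 1 ran over 6.55 to 7.33 and 6.25 to 7.06 on the log2 scale. These come from centred count ratios with no 1 added. The differences for library 1, which have 1 added to each level, lay below them, at 6.36 and 5.97. AMT1;1 overlaps an annotated neighbour, AT4G13505, and the sources used here do not say whether reads were counted by strand. GRP7, an RNA-binding protein whose transcript follows the clock, was the most abundant of the 12, with 2589 and 2336 FPKM in high light and 69.5 RPKM in low light. EXO, a secreted protein linked to brassinosteroid growth responses, had 109.7 and 147 FPKM in high light, against 2.95 RPKM in low light. The remaining 7 were RD29A, described with the cold genes, and 6 loci without a common name. The loci were a protein kinase (AT3G59350), a late embryogenesis abundant family member (AT2G27080), a heavy metal-associated domain protein (AT1G51090), a nuclease (AT4G29780), a phospholipase-like protein of the PEARLI 4 family (AT4G38550) and a MATE efflux carrier (AT5G52050). The nearer library of these loci was between 4.92 and 5.88 above low light. AT2G27080 and AT4G38550 overlap annotated neighbours, as do AT5G05370, SIS and LHCB4.2 among the lowest genes, so their reads may be shared with these.

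In WT, the same genes did not all lie on the same side. AMT1;1 had 157 and 256 FPKM in WT high light, against 4.37 RPKM in WT low light, and AT4G38550 had 494 and 332 FPKM, against 20.1 RPKM. CYP707A3 had 2.44 and 2.70 FPKM in WT high light, against 17.5 RPKM in WT low light, and DIC2 had 23.6 and 25.3 FPKM, against 45.03 RPKM. AMT1;1 and AT4G38550 were thus higher after high light in both genotypes, while CYP707A3 was called higher in ibm1-3 and lower in WT, a difference between genotypes that was not tested. DIC2 was not called in WT, with differences of -0.78 and -0.76.

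**Figure D2:**
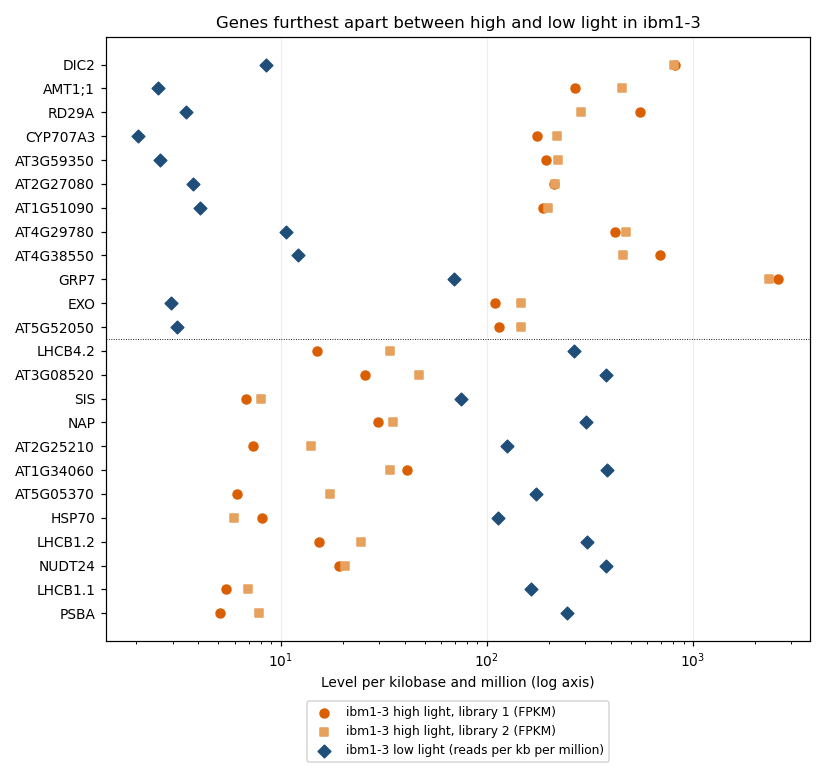
Level per kilobase, scaled to library size (log axis), of the 12 genes highest and the 12 genes lowest after high light in ibm1-3, with 1 symbol per library: high light library 1 (circles, FPKM), high light library 2 (squares, FPKM) and low light (diamonds, reads per kilobase, scaled). Above the dotted line both high light symbols lie far to the right of the diamond, as for DIC2 at 815 and 809.9 against 8.52, and below it both lie to the left.

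Of the genes examined, 460 were listed at 0 in low light, and 421 of these were among the 1693 called higher. With low light at 0, a gene reached the minimum level only through its high light level, so the filter nearly fixed these calls in advance. Of 16435 genes examined with reads in low light, 1272 were called higher. Such a value stands for fewer than 15 reads or for a gene that the table did not count, so no fold is given. Among them GER1, a germin-like protein of the cell wall, had 339 and 1175 FPKM in high light, and EXL1, an EXORDIUM-like protein known from carbon starvation, had 173 and 155 FPKM. A kinase (AT4G19110), a methyltransferase (AT1G73600) and a monooxygenase (AT4G38540) stood between 90.3 and 165 FPKM in high light. GER1, AT4G19110 and AT1G73600 were also listed at 0 in WT low light while WT high light held up to 1705 FPKM of GER1, so a 0 in this table need not stand for an absent transcript. The monooxygenase gene lies close to AT4G38550, 1 of the 12 highest genes, on chromosome 4. In the other direction, 3 genes with reads in low light stood at the floor of 0.01 FPKM in both high light libraries. Library 1 counted no fragment of them, and library 2 has no counts. They were AT2G47200 with 32 reads, AT5G04790 with 18 and AT1G49640 with 16.

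The 12 lowest genes included components of photosynthesis, of the stress response, of ribosomes and of senescence. PSBA, the chloroplast gene for the D1 protein of photosystem II, had 5.11 and 7.86 FPKM in high light, against 244 RPKM from 3397 reads in low light. Both libraries were far below low light, by -5.21 and -4.79 on the log2 scale. LHCB1.1 and LHCB1.2, neighbouring genes on chromosome 1 for the main antenna protein of photosystem II, had 5.44 and 6.98 and 15.4 and 24.6 FPKM in high light, against 164 and 307 RPKM in low light. These copies are close in sequence, so the split of reads between them is uncertain. NUDT24, a nudix hydrolase, had 19.3 and 20.4 FPKM in high light and 377 RPKM in low light, and NAP, a NAC factor that promotes leaf senescence, had 29.8 and 35.03 FPKM in high light and 301 RPKM in low light. SIS, a serine-rich protein induced by salt, had 6.78 and 8.08 FPKM in high light, against 74.8 RPKM in low light. The others were a heat shock protein (HSP70), a subunit of the mitochondrial cytochrome b-c1 complex (AT5G05370), a pyridoxal phosphate enzyme (AT1G34060), the ribosomal proteins AT2G25210 and AT3G08520, and LHCB4.2, a minor antenna protein. In WT, NAP was called higher, with 484 and 433 FPKM in high light and 149.7 RPKM in low light. SIS was above low light in WT without passing 2-fold, with 52.7 and 64.4 FPKM in high light and 40.7 RPKM in low light. AT1G34060 was not called there, and the other genes of the 12 were at least 2-fold lower in both WT libraries of high light. PSBA had 10.84 and 18.59 FPKM in WT high light and 249 RPKM in WT low light.

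**Figure D3:**
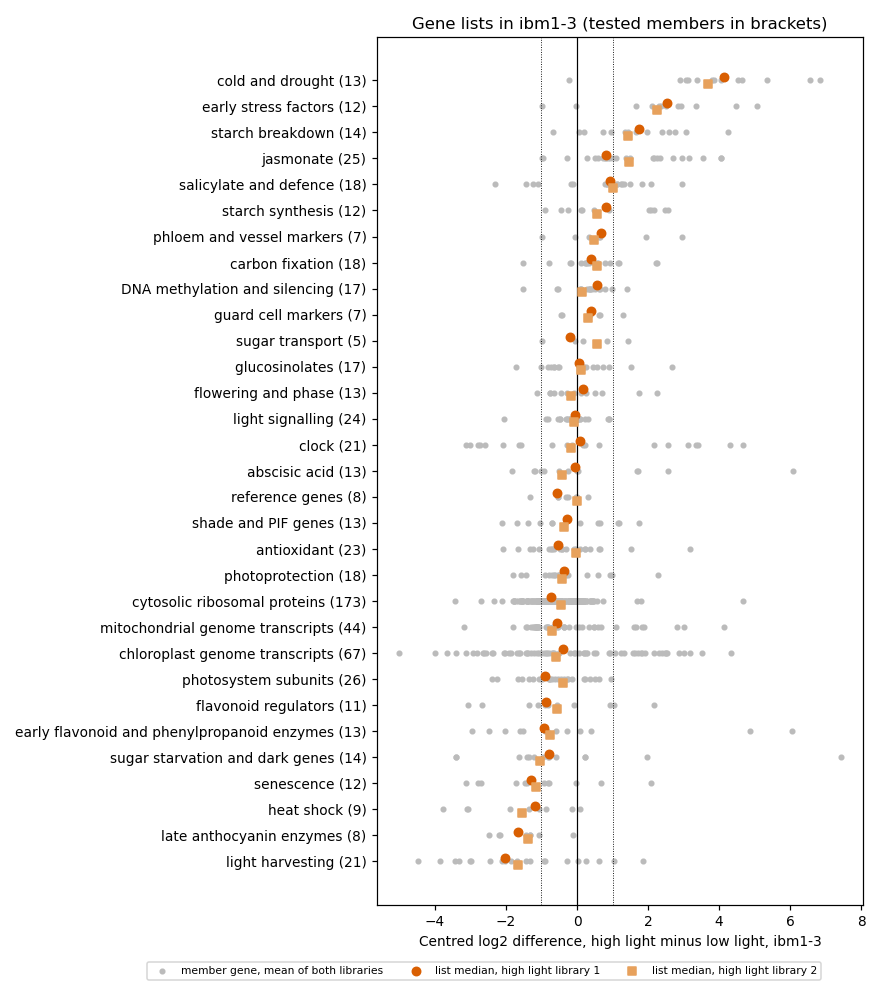
Centred log2 difference (horizontal axis, high light minus low light in ibm1-3) for the members of each gene list, with the number of members examined in brackets. Grey points are genes (mean of both high light libraries), circles and squares are list medians for high light libraries 1 and 2, and dotted lines mark 2-fold. Cold and drought genes lie furthest to the right and light-harvesting genes furthest to the left.

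Genes that protect cells against cold and drought stood furthest above low light. Of 13 examined, 12 were called higher and none lower, beside 10.0% and 6.68% of all genes, and the list median was 3.85, beside -0.06 over all genes. Of the 12, 5 were listed at 0 in low light, where the filter nearly fixes the call. Of 8 members with reads in low light, 7 were called higher. RD29A (AT5G52310; chromosome 5, 21240717 to 21243644), a hydrophilic protein made in drought and cold, had 556 and 285 FPKM in high light, against 3.47 RPKM in low light. COR15A, which stabilises chloroplast membranes during freezing, had 143 and 104 FPKM in high light and 2.18 RPKM in low light, and its homologue COR15B had 37.1 and 54.6 FPKM in high light and 0.916 RPKM in low light. COR15A and COR15B rest on 20 and 19 low light reads. In each of these genes both high light libraries were well above the low light level.

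The dehydrins COR47 and ERD10, which bind water and membranes, were already abundant in low light. COR47 had 1614 and 1413 FPKM in high light and 108 RPKM in low light, and ERD10 had 3168 and 1517 FPKM in high light and 165 RPKM in low light. The dehydrin LTI30 had 139 and 83.6 FPKM and KIN1 had 24.7 and 18.0 FPKM in high light, and both were listed at 0 in low light. So were the 3 CBF genes, the transcription factors that bind the dehydration-responsive element upstream of these genes, with 8.83 and 9.22 FPKM of CBF1, 15.2 and 14.8 of CBF2 and 4.39 and 8.33 of CBF3 in high light. RAB18, a dehydrin that answers abscisic acid, was the exception, with 29.2 and 14.6 FPKM in high light and 25.3 RPKM in low light, and RD29B was below the minimum level. In WT, 6 of 12 were higher and 1 lower, beside 11.1% and 11.7% of all genes in WT, with a median of 1.14. There RD29A had 39.01 and 21.2 FPKM in high light and 7.35 RPKM in low light, and ERD10 had 245 and 120.3 FPKM in high light and 297 RPKM in low light.

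**Figure D4:**
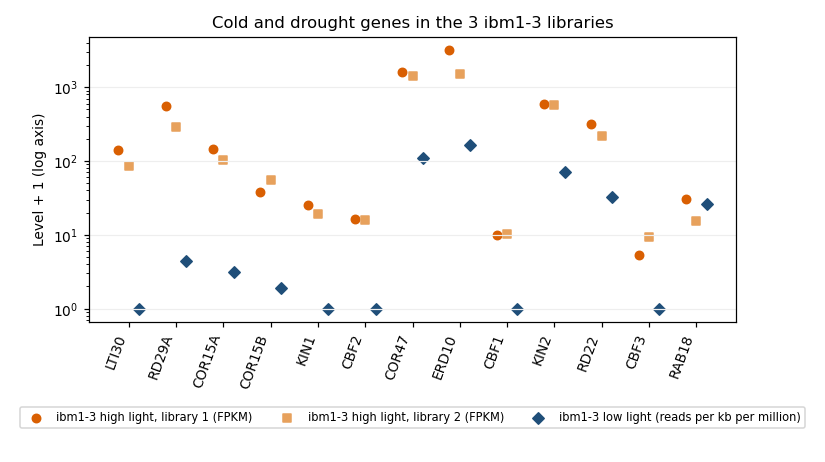
Level + 1 (log axis) of the 13 cold and drought genes in the 3 ibm1-3 libraries: high light library 1 (circles, FPKM), high light library 2 (squares, FPKM) and low light (diamonds, reads per kilobase, scaled). A diamond at 1 is a gene listed at 0. Only for RAB18 does the diamond lie between the high light symbols.

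The 250 bases before RD29A and COR15A are shown because they hold copies of the dehydration-responsive element core CCGAC, the sequence that CBF and DREB factors bind (RefSeq, TAIR10.1; RD29A at chr5:21240467-21240716, forward strand, and COR15A at chr2:17712331-17712580, reverse strand). Matches to CCGAC on either strand, and a G-box CACGTG in COR15A, are in capitals.
RD29A: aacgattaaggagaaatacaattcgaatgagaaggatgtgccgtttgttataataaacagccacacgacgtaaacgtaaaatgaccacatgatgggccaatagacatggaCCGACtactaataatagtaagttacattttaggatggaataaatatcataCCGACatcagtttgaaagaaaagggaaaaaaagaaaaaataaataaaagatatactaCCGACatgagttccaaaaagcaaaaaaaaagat
COR15A: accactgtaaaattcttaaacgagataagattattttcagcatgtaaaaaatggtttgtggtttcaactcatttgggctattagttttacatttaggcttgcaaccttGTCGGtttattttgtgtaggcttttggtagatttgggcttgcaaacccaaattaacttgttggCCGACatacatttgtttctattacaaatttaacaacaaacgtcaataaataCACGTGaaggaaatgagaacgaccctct
The RD29A window holds 3 copies and the COR15A window 2. Over the list, 3 of 13 windows held the core (23.1%), beside 13.4% of all genes examined, 14.1% of genes called higher and 12.3% of genes called lower. The shares before genes called higher and before all genes were thus close.

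Early stress factors were also higher. Of 12 regulators that respond within the first hours of oxidative stress, 10 were called higher and none lower, beside 10.0% and 6.68% of all genes, with a median of 2.43. RRTF1, an ERF factor of redox signalling, had 210.1 and 164 FPKM in high light, against 4.85 RPKM in low light. BAP1, a membrane protein that restrains cell death and responds to singlet oxygen, had 91.3 and 104 FPKM in high light, against 3.61 RPKM in low light. WRKY40 had 419 and 449 FPKM in high light and 58.5 RPKM in low light, and ZAT10, a zinc finger repressor, had 179 and 586 FPKM in high light and 46.8 RPKM in low light. The high light libraries of ZAT10 differed from each other by more than 3-fold, but both lay above low light. DREB2A, OXI1, WRKY33, ZAT12, ERF5 and ERF6 were also called, and the sigma factor binding protein SIB1 and WRKY6 were not. In WT none of the 12 was called higher and 3 were lower, beside 11.1% and 11.7% of all genes in WT. There RRTF1 had 7.17 and 3.44 FPKM in high light and 49.5 RPKM in low light, and WRKY40 had 29.4 and 26.2 FPKM in high light and 278 RPKM in low light.

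Jasmonate, a lipid hormone of wounding and defence, is made from linolenic acid by lipoxygenases (LOX), allene oxide synthase (AOS), allene oxide cyclases (AOC) and OPR3, and JAZ proteins repress its responses. Of 25 genes, 12 were called higher and none lower, beside 10.0% and 6.68% of all genes, with a median of 1.09. AOC3 had 288 and 578 FPKM in high light, against 24.8 RPKM in low light, and LOX4 had 446 and 504 FPKM in high light, against 41.6 RPKM in low light. Among the repressors JAZ5 had 352 and 313 FPKM in high light, against 38.2 RPKM in low light, and JAZ1, JAZ7, JAZ8 and JAZ10 were called as well. The abundant LOX2 of the chloroplast was not called, at 848 and 870.4 FPKM in high light and 522 RPKM in low light. VSP1, an acid phosphatase induced by jasmonate, was listed at 0 in low light and had 12.6 and 17.8 FPKM in high light. In WT 1 of 24 genes was higher and 8 lower, beside 11.1% and 11.7% of all genes in WT. There LOX4 had 17.3 and 17.4 FPKM in high light and 178 RPKM in low light.

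Genes of salicylate and defence were divided. Of 18, 7 were called higher and 3 lower, beside 10.0% and 6.68% of all genes, with a median of 0.98. WRKY46, which activates salicylate defence, had 276 and 228 FPKM in high light and 33.3 RPKM in low light, and WRKY53 had 263 and 269.9 FPKM in high light and 65.1 RPKM in low light. ICS1, the isochorismate synthase that makes most salicylate, had 101 and 82.1 FPKM in high light and 38.8 RPKM in low light. The pathogenesis-related genes differed in direction. PR2, a glucanase, had 1051 and 1103 FPKM in high light and 453 RPKM in low light, while PR1 had 44.7 and 83.8 FPKM in high light and 176 RPKM in low light. NIMIN1, an inhibitor of the salicylate receptor NPR1, and ALD1, which makes the immune signal pipecolate, were the other 2 called lower.

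Abscisic acid genes had 4 of 13 higher and 3 lower, beside 10.0% and 6.68% of all genes, with a median of -0.25. Next to CYP707A3, the hydroxylase CYP707A1 had 25.9 and 36.5 FPKM in high light, against 4.66 RPKM in low light. NCED3, the synthesis enzyme induced by drought, had 16.4 and 35.8 FPKM in high light and 6.99 RPKM in low light, and NCED9 was listed at 0 in low light. The phosphatases ABI2, HAB1 and HAI1, which are repressors of the response, were called lower, HAI1 with 5.49 and 5.84 FPKM in high light and 23.7 RPKM in low light. Of 17 genes of glucosinolates, sulfur compounds made against herbivores, 2 were higher and 1 lower, shares close to those of all genes. The 2 were MYB51, a regulator of indole glucosinolates, with 92.4 and 112 FPKM in high light and 15.95 RPKM in low light, and MYB34. The enzyme CYP83A1 had 119 and 167 FPKM in high light and 482 RPKM in low light.

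The circadian clock of plants is a loop in which the morning factors CCA1 and LHY repress evening genes such as TOC1, ELF3, ELF4 and LUX, and PRR proteins expressed through the day repress CCA1 and LHY. Of 21 clock genes, 7 were called higher and 8 lower in ibm1-3, beside 10.0% and 6.68% of all genes. The list median was -0.13. The morning factors CCA1 and LHY were lower. CCA1 had 10.7 and 7.09 FPKM in high light, against 66.04 RPKM in low light, and LHY had 15.5 and 11.98 FPKM in high light, against 90.9 RPKM in low light. Their coactivators LNK1 and LNK2 had 9.10 and 5.88 and 29.5 and 22.4 FPKM in high light, against 69.01 and 190.0 RPKM in low light. PRR9, the earliest PRR gene of the day, had 0.29 and 0.39 FPKM in high light and 11.3 RPKM in low light. RVE4, RVE7 and RVE8, relatives of CCA1, were the other 3 called lower.

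The evening genes TOC1, ELF3, ELF4 and LUX were higher. TOC1 (AT5G61380; chromosome 5, 24674963 to 24678550) had 65.5 and 61.6 FPKM in high light, against 6.80 RPKM in low light. ELF3, ELF4 and LUX, which together form the evening complex, had 37.5 and 26.2, 81.1 and 61.4 and 18.4 and 14.2 FPKM in high light, against 2.33, 15.7 and 2.01 RPKM in low light. PRR5 had 43.1 and 24.99 FPKM in high light, against 0.774 RPKM from 17 reads in low light. FKF1, a blue light receptor of the afternoon, was listed at 0 in low light and had 24.98 and 22.1 FPKM in high light. Unlike RVE4, RVE7 and RVE8, their relative RVE2 was called higher, and it was listed at 0 in low light. GI, an evening gene as well, was not called, at 8.04 and 8.11 FPKM in high light and 9.35 RPKM in low light. The hour at which the leaves were taken is not given in the sources used here. In WT 10 of 21 were higher and 2 lower, beside 11.1% and 11.7% of all genes in WT. There CCA1 had 284 and 225 FPKM in high light and 56.4 RPKM in low light, and TOC1 had 19.4 and 18.2 FPKM in high light and 14.8 RPKM in low light.

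**Figure D5:**
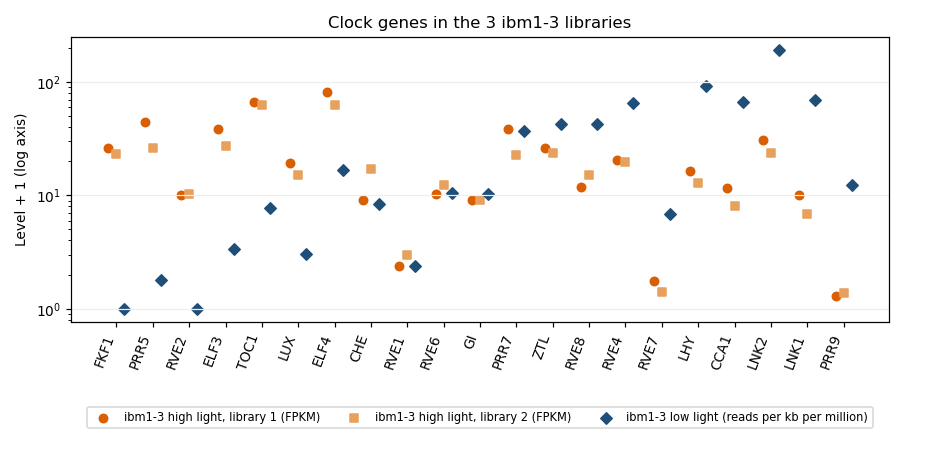
Level + 1 (log axis) of 21 clock genes in the 3 ibm1-3 libraries, ordered from the highest to the lowest difference between high and low light: high light library 1 (circles, FPKM), high light library 2 (squares, FPKM) and low light (diamonds, reads per kilobase, scaled). Evening genes such as TOC1 and ELF3 have both high light symbols above the diamond, and morning genes such as LHY and CCA1 have both below it.

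CCA1 and its relatives bind the evening element AAAATATCT. The 250 bases before TOC1, the classic target, are shown with their match in capitals (RefSeq, TAIR10.1, chr5:24674713-24674962, forward strand; the match lies on the opposite strand).
TOC1: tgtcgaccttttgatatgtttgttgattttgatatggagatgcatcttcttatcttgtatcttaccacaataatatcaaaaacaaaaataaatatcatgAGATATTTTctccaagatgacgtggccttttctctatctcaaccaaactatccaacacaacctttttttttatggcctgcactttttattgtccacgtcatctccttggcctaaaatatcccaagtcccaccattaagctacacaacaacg
On either strand the element was present before 2.65% of all genes examined, 5.87% of those called higher and 1.55% of those called lower. Among genes called higher with reads in low light the share was 5.72%. Of the clock genes 5 of 21 held it. The G-box CACGTG, bound by light and stress factors, was present before 7.55% of all genes, 8.14% of those higher and 9.85% of those lower.

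Genes for light-harvesting proteins, which bind chlorophyll in the antennae of the photosystems, had a list median of -1.68. Of 21, 11 were called lower and 1 higher, beside 6.68% and 10.0% of all genes. Next to LHCB1.1 and LHCB1.2, the abundant LHCB1.5 had 235 and 359 FPKM in high light, against 1647 RPKM in low light. LHCA4, an antenna protein of photosystem I, had 81.2 and 116 FPKM in high light, against 806 RPKM in low light, and LHCB2.1 had 11.5 and 30.4 FPKM in high light, against 204 RPKM in low light. Not all copies moved alike. LHCB1.3 had 218 and 438 FPKM in high light and 209 RPKM in low light, and LHCA6 was called higher, with 11.5 and 11.8 FPKM in high light and 2.63 RPKM in low light. The list summed to 1525 and 2690.0 FPKM in high light, against 6944 RPKM in low light. After subtraction of length classes 11 were lower and 1 higher, with a median of -1.45. In WT 9 were lower and 5 higher, beside 11.7% and 11.1% of all genes in WT, with a median of -1.16.

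Other photosynthesis genes stood closer to low light. Of 26 nuclear genes for subunits of the photosystems, electron carriers and ATP synthase, 5 were lower (PSAD2, PSAN, PSAO, PSBQ2 and PETE1) and none higher, with a median of -0.67, which became -0.30 with length classes subtracted. PETE1, a plastocyanin, had 6.85 and 11.7 FPKM in high light and 48.2 RPKM in low light, and PSAD2, a subunit of photosystem I, had 92.0 and 69.4 FPKM in high light and 440.1 RPKM in low light. Several of these genes differed between the high light libraries by more than 2-fold, such as PSAH1 with 70.2 and 338 FPKM. Of 18 carbon fixation genes, the Rubisco genes RBCS1B and RBCS2B and PRK, a kinase of the Calvin cycle, were higher. Rubisco activase (RCA) was lower. The shares of all genes were 10.0% higher and 6.68% lower. RCA had 1165 and 1295 FPKM in high light, against 3669 RPKM from 93812 reads in low light, and RBCS1B had 627 and 1057 FPKM in high light, against 178 RPKM in low light. In WT, RCA had 7923 and 8511 FPKM in high light and 3568 RPKM in low light. There 14 of 18 carbon fixation genes were higher and none lower, beside 11.1% and 11.7% of all genes in WT.

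Photoprotection genes were mostly not called in ibm1-3. Of 18, 1 was higher and 3 were lower, beside 10.0% and 6.68% of all genes, with a median of -0.53. With length classes subtracted 2 were higher and 1 lower, with a median of -0.26. NPQ1, the violaxanthin de-epoxidase that makes the heat-dissipating pigment zeaxanthin, had 30.4 and 27.9 FPKM in high light, against 5.53 RPKM in low light. ZEP, which runs the reverse reaction, had 91.1 and 66.95 FPKM in high light, against 245 RPKM in low light. The other 2 called lower were OHP1, a single-helix relative of antenna proteins, and the protease DEG1, which helps to repair photosystem II. ELIP1, an early light-induced protein, was not called, with 192 and 395 FPKM in high light and 192 RPKM in low light. In WT 11 of 18 were higher and none lower, beside 11.1% and 11.7% of all genes in WT. There ELIP1 had 139 and 259 FPKM in high light and 17.9 RPKM in low light. Low light levels of ELIP1 thus differed between the genotypes by more than 10-fold, in 1 library each.

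Of 23 antioxidant genes, 2 were higher and 2 lower, shares close to the 10.0% and 6.68% of all genes. MDAR3, a reductase that regenerates ascorbate, had 247 and 213 FPKM in high light, against 25.5 RPKM in low light, and PRXQ, a peroxiredoxin of chloroplasts, had 62.1 and 62.1 FPKM in high light, against 22.2 RPKM in low light. The lower genes were CAT2, the main catalase of photorespiration, with 118 and 197 FPKM in high light and 674 RPKM in low light, and DHAR2, a dehydroascorbate reductase. The ascorbate peroxidase APX1 was below low light in both libraries but passed 2-fold in library 1 alone, with 297 and 795 FPKM in high light and 1194 RPKM in low light. CAT2 had 1429 and 2392 FPKM in WT high light and 516 RPKM in WT low light.

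Late enzymes of anthocyanin synthesis were mostly lower after high light in ibm1-3. Of 8 late anthocyanin enzymes, 5 were called lower and none higher, beside 6.68% and 10.0% of all genes, with a median of -1.39. DFR (AT5G42800), the first enzyme of the anthocyanin branch, had 294 and 379 FPKM in high light, against 1583 RPKM from 31515 reads in low light. LDOX, which acts after it, had 239 and 184 FPKM in high light, against 1234 RPKM in low light. The acyltransferase SCPL10, UF3GT, a glycosyltransferase, and the malonyltransferase 5MAT were the other 3.

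Earlier steps were partly lower. Of 13 enzymes from phenylalanine to flavonols, 5 were lower and 2 higher, beside 6.68% and 10.0% of all genes. Both higher ones were listed at 0 in low light, and of 11 enzymes with reads there none was higher. The list median was -0.84. Chalcone synthase (TT4), the entry to the flavonoids, had 449 and 894 FPKM in high light, against 3662 RPKM from 81684 reads in low light. CHIL, a helper of chalcone isomerase, had 34.2 and 31.6 FPKM in high light, against 275 RPKM in low light, and the hydroxylase TT7 had 64.1 and 75.8 FPKM in high light, against 302 RPKM in low light. The lower genes also held C4H and 4CL3, while PAL1 and PAL2 were not called. The 2 genes called higher, F3H and FLS1, were listed at 0 in low light and had 66.4 and 57.9 and 30.99 and 23.5 FPKM in high light. F3H, which acts between TT4 and DFR, was listed at 0 in WT low light too.

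Among 11 regulators of the pathway, MYB75, an activator of anthocyanin genes, had 26.4 and 19.9 FPKM in high light, against 207 RPKM in low light, and MYBL2, a repressor, had 12.1 and 17.5 FPKM in high light, against 103 RPKM in low light. The activator and the repressor were both called lower, and MYB111, a flavonol activator listed at 0 in low light, was called higher. The shares of all genes were 6.68% lower and 10.0% higher. The list median was -0.81, but 0.16 with no filter on low values. MYB90, a close relative of MYB75, was lower without passing 2-fold in library 1, with 188 and 120.0 FPKM in high light and 399 RPKM in low light. WT leaves held far less of these transcripts, with 4.18 and 3.95 FPKM of DFR in high light and 59.1 RPKM in low light, and 10.6 and 21.6 FPKM of TT4 in high light and 82.9 RPKM in low light. In WT 4 of 7 late enzymes were lower and none higher, beside 11.7% and 11.1% of all genes in WT. Both genotypes thus had the late enzymes on the lower side in high light.

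Heat shock genes were lower. Of 9 examined, 6 were called lower and none higher, beside 6.68% and 10.0% of all genes, with a median of -1.36. The chaperone HSP70 (AT3G12580) had 8.12 and 5.94 FPKM in high light, against 113 RPKM in low light. HSFA2, a heat shock factor that also responds to strong light, had 0.78 and 0.98 FPKM in high light, against 15.8 RPKM in low light, and the coactivator MBF1C had 15.2 and 6.27 FPKM in high light, against 93.0 RPKM in low light. HSP90.1, HSP101 and HSP17.4 were the other 3, and 4 small heat shock genes were below the minimum level, with low light listed at 0. In WT 4 of 8 were lower and none higher, beside 11.7% and 11.1% of all genes in WT. There HSP70 had 7.23 and 6.26 FPKM in high light and 196 RPKM in low light.

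Many genes of starch metabolism were higher. Leaves store starch by day and degrade it at night by phosphorylation of the granule, amylases and debranching enzymes. Of 14 breakdown genes, 8 were called higher and none lower, beside 10.0% and 6.68% of all genes, with a median of 1.55. BAM3, the main beta-amylase of leaf starch, had 1805 and 1103 FPKM in high light, against 76.6 RPKM in low light. PWD, a kinase that phosphorylates starch, had 86.7 and 83.4 FPKM in high light, against 9.73 RPKM in low light, and AMY3, an alpha-amylase, had 73.9 and 49.9 FPKM in high light, against 8.46 RPKM in low light. PHS2, a cytosolic phosphorylase, BAM5, GWD1, ISA3 and SEX4 were the other 5. Of 12 synthesis genes, 5 were higher and none lower, among them SBE2.1, a branching enzyme, with 103 and 102 FPKM in high light and 17.2 RPKM in low light, and GPT2, which imports glucose phosphate into chloroplasts, with 271 and 648 FPKM in high light and 107 RPKM in low light. APL1, SS4 and PGM were the other 3. In WT 4 of 14 breakdown genes were higher and 4 lower, beside 11.1% and 11.7% of all genes in WT.

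Genes known to rise in darkness or when sugar is short were on the lower side. Of 14, 6 were lower and 2 higher, beside 6.68% and 10.0% of all genes, with a median of -0.89. BXL1, a beta-xylosidase, had 0.93 and 0.75 FPKM in high light, against 19.3 RPKM in low light, and AT4G27450, an aluminium-induced family protein, had 0.53 and 1.17 FPKM in high light, against 18.9 RPKM in low light. SEN1, TPS11, KMD1 and BGAL4 were the other 4. The 2 higher genes were EXL1, listed at 0 in low light, and DIN10, a raffinose synthase family member, with 12.2 and 10.9 FPKM in high light and 2.35 RPKM in low light. In WT 11 of 14 were higher and 1 lower, beside 11.1% and 11.7% of all genes in WT, with a median of 2.05. There BXL1 had 180.4 and 251 FPKM in high light and 76.1 RPKM in low light. Of 5 sugar transporters, SWEET12, a sucrose exporter of phloem, was higher, with 62.9 and 109 FPKM in high light and 31.6 RPKM in low light, and 4 were not called.

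Senescence genes were lower, and in this comparison the low light plants were the older ones. Of 12, 6 were lower and 1 higher, beside 6.68% and 10.0% of all genes, with a median of -1.16. Beside NAP, the NAC factor ORE1, which drives leaf ageing, had 22.2 and 32.05 FPKM in high light, against 187 RPKM in low light. SAG12, a protease of late senescence, had 2.16 and 1.72 FPKM in high light and 9.12 RPKM in low light, and SAG29, a sugar transporter, had 0.24 and 0.54 FPKM in high light and 8.98 RPKM in low light. NYE1, which takes magnesium from chlorophyll, and SAG13 were lower too, while WRKY53 was higher. In WT, with the same ages, 5 of 10 were higher and 1 lower, beside 11.1% and 11.7% of all genes in WT. The median there was 1.18, and ORE1 had 160.3 and 204 FPKM in high light and 69.1 RPKM in low light. Of 13 flowering genes, SPL5 and CO were higher and TSF was lower. FT, the mobile flowering signal, was not called, at 15.7 and 14.5 FPKM in high light and 14.4 RPKM in low light. CO was listed at 0 in low light.

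Photoreceptors and light signalling genes were close to low light in ibm1-3, with a median of -0.12. Of 24, 0 were called higher and 1 lower, beside 10.0% and 6.68% of all genes. BBX24, a repressor of light responses, had 32.3 and 65.6 FPKM in high light, against 204 RPKM in low light. HY5, the factor that activates light-induced genes, was not called, with differences of -0.22 and -0.75, and CRY1, a blue light receptor, had 33.5 and 37.5 FPKM in high light and 68.3 RPKM in low light. In WT 11 of 24 were higher and none lower, beside 11.1% and 11.7% of all genes in WT. Of 13 shade genes, PIF3, PIF4 and PIF5, growth-promoting factors that phytochrome degrades in light, were lower. PIF5 had 18.9 and 20.4 FPKM in high light, against 91.9 RPKM in low light, and PIF4 had 19.1 and 17.8 FPKM in high light, against 64.4 RPKM in low light. PIL1, a relative induced by shade, was higher, with 16.5 and 10.9 FPKM in high light and 3.47 RPKM in low light.

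Genes of DNA methylation, silencing and their control, a list that includes IBM1 itself, were mostly not called. Of 17, 1 was higher and 1 lower, beside 10.0% and 6.68% of all genes. The list median of 0.36 is the value of IBM1, whose high light libraries lay on either side of low light. CMT3, the methyltransferase for CHG sites that acts with histone methylation, was higher, with 2.94 and 4.22 FPKM in high light and 0.797 RPKM from 32 reads in low light. BNS, a gene known to become methylated in ibm1 mutants, was lower, with 6.09 and 5.08 FPKM in high light and 18.8 RPKM in low light. SUVH4, the histone methyltransferase that IBM1 opposes, had 1.68 and 1.49 FPKM in high light and 3.003 RPKM in low light. With length classes subtracted the median of this list of long genes was 0.07 and neither call remained.

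Transcripts of the organelle genomes and of ribosomes depended most on length. Of 67 chloroplast transcripts, 22 were lower and 17 higher, beside 6.68% and 10.0% of all genes. Their median of -0.64 became 0.01 with length classes subtracted. Of the 17 higher, 12 had reads in low light and the others were listed at 0 there. Transcripts of the photosystem I core, PSAA and PSAB, had 1.16 and 1.91 and 0.83 and 1.64 FPKM in high light, against 31.7 and 35.7 RPKM in low light. ATPE, a subunit of the chloroplast ATP synthase, had 990.2 and 697 FPKM in high light, against 108 RPKM in low light. Both PSAA and ATPE lay on the same sides in WT, where ATPE had 3322 and 2250.4 FPKM in high light and 163 RPKM in low light. Of 44 mitochondrial transcripts, 10 were lower and 5 higher, 3 and 6 with length classes subtracted, and 1 of the 5 higher had reads in low light. Of 173 genes for cytosolic ribosomal proteins, 24 were lower and 3 higher, with a median of -0.59, and 9 lower and 3 higher with a median of -0.21 after the subtraction. Of these 3 higher, 1 had reads in low light. In WT 108 of 171 ribosomal genes were lower, beside 11.7% of all genes in WT, with a median of -1.51.

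Among 8 genes used as internal standards, 7 were not called, and the list median was -0.28. The shares of all genes were 10.0% higher and 6.68% lower. PP2AA3, a phosphatase subunit, had 24.8 and 28.6 FPKM in high light, against 28.2 RPKM in low light. UBQ10, a polyubiquitin gene, was lower, with 981 and 976 FPKM in high light and 2569 RPKM in low light.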

How the data were processed

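Leaf RNA of ibm1-3 was measured by RNA sequencing in 2 high light libraries and 1 low light library, and that of WT likewise, as grouped by titles and characteristics. Members and gene lists were chosen with earlier results of these data known. Per the labels' protocols, Illumina and BGI procedures were both used for library making, with no word on which served which sample. The submitters' processing notes list Bowtie2 (an aligner) and the TAIR10 genome build. How reads were assigned to genes, whether by strand, and with which software versions is not given in the sources used here.

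There are 3 deposited tables. For high light pair 1 the authors gave FPKM beside estimated counts of fragments, according to the headers. For pair 2 there is only an expression column, whose deposited values have the range and floor of FPKM. In pair 1, 0.01 stands where no fragment was counted. The same value in pair 2, which has no counts, was read likewise. The low light table holds a signal that the authors deposited under the name read count. Its nonzero values were whole multiples of 1 step (100% within 0.01 steps), the smallest being 15 steps, so the steps were taken as reads and lower genes as listed at 0. Columns of pair 1 carry no number and were taken as replicate 1, the title that the table names. For some of these samples the description gives a different number from the title.

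Low light reads were divided by the gene length of the table of pair 1 and by the total of 13099267 reads. A pseudocount of 1 was added, log2 was taken, and each library was centred on its median over genes with a mean level of at least 1. Identifiers with a transcript suffix in the table of pair 2 (1003) were left out, and 862 genes of both high light tables had no low light value. A call needed at least 2-fold in both high light libraries. No test was made across the tables, because they were normalized separately and low light has 1 library, so there are no p-values. The labels do not name separate plants, and the spread between libraries may be technical. Intervals are exact 95% binomial intervals of the counts and cover counting error only. They use count ratios with no pseudocount, centred on the median ratio, so they are not intervals of the differences given.

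Genes are named by a rule: IBM1, the 12 highest and 12 lowest with at least 50 low light reads and 5 FPKM, and up to 5 per list. Up to 5 listed at 0 in low light or at the floor of both high light libraries are named too. Other members, and the motifs, were picked with their values in view. Promoters are the 250 bases before the RefSeq gene start (TAIR10.1). All 20438 nuclear genes compared overlapped the deposited coordinates, and 61.3% had identical ones. The computation was tested on simulated data. Python 3.11.15, numpy 2.4.6, pandas 2.3.3 and scipy 1.17.1 were used.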

Additional observations from a re-analysis of the deposited data

Results flagged for a closer look

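Several values lay on opposite sides of low light in the 2 genotypes, in both high light libraries of each. None of these differences between ibm1-3 and WT was tested, and each genotype has 1 low light library. The median of sugar starvation and dark genes was -0.89 in ibm1-3 and 2.05 in WT. The median of senescence genes was -1.16 in ibm1-3 and 1.18 in WT.

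Among single genes, the mean difference of CYP707A3, which inactivates abscisic acid, was 6.08 in ibm1-3 and -2.29 in WT. AT2G27080, a late embryogenesis abundant family member, was at 5.56 in ibm1-3 and -2.56 in WT. AT4G29780, a nuclease, was at 5.32 in ibm1-3 and -1.44 in WT. EXO, a growth-related secreted protein, was at 5.08 in ibm1-3 and -1.58 in WT. NAP, the senescence factor, was at -3.12 in ibm1-3 and 1.70 in WT.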

How the results depend on the processing

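No paired analysis was possible because the low light library carries no replicate number shared with the high light libraries and no test was made. The 1693 higher and 1128 lower genes became 1016 and 687 with a pseudocount of 5, and 649 and 163 with a threshold of 4-fold. Percentile ranks, with a call at 20 points, gave 1067 higher and 758 lower. Leaving out 1 high light library gave 2175 to 2431 higher and 1590 to 2330 lower, since 1 library then decided each call. Leaving out the genes listed at 0, an alternative chosen after seeing the data, gave 1318 higher and 1074 lower. Subtracting length classes, also chosen after seeing the data, gave 1827 and 762, and TMM centring 1859 and 948. In all, 22 values of these counts stayed within 1.5 times, and of 324 values of single genes 323 kept their sign. The exception was IBM1, at -0.27 without high light library 1. The median of the flower markers, 1 gene at -1.60, was 0.08265 with no filter on low values. Of 452 list medians 441 kept their sign, and the 8 lists with a change were clock, flowering and phase, sugar transport, glucosinolates, chloroplast and mitochondrial transcripts, flower markers and flavonoid regulators (-0.81, but 0.16 with no filter). Sizes moved more: 76 list medians and 48 values of single genes were marked as moved, some by less than the high light libraries differed. Heat shock genes (-1.36) were at -2.46 with a mean level of at least 5 and -0.78 with a pseudocount of 5, and a pseudocount of 0.1 took cold and drought genes (3.85) to 5.81. Low light genes under 15 reads, and the unknown depth of high light library 2, limit what can be said of low levels.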

Other observations

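Families of transcription factors and enzymes, chosen after their values were seen, add to the description. Of 48 WRKY factors, which regulate defence, 12 were called higher, 11 of them with reads in low light, and 1 lower. Of 41 ERF and DREB factors, which answer ethylene and drought, 14 were higher, 8 of them with reads in low light, and 4 lower. Of 47 MYB factors 14 were higher, 10 of them with reads in low light, and 4 lower. NAC factors, many of them active in ageing leaves, had 3 of 37 higher, all with reads in low light, and 7 lower. Of 16 xyloglucan endotransglucosylase genes, which remodel cell walls, 5 were higher, 2 of them with reads in low light, and none lower. Of 21 tau glutathione transferases, which detoxify reactive compounds, 1 was higher, GSTU6, listed at 0 in low light, and 6 were lower. Of 7 calmodulin-like genes the calcium sensors CML37 and CML38 were higher. Over all genes, 10.0% were called higher and 6.68% lower.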
